A study of Mus musculus with 31 samples.

Results

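The genes described here are the granins and the proteins that prepare dense-core vesicles for release: Chga, Chgb, Scg2, Scg3 and Vgf of the granin family, the granule proteins Resp18 and Nucb2, and the release factors Baiap3, Cadps and Cadps2. They were chosen by symbol in the deposited normalized table and matched by Ensembl identifier to the deposited count table. All 10 have a row in both tables, out of 55421 mouse genes, and all 10 were measured, meaning that 25% or more of the cells of at least 1 group held a read. The samples were 18 lateral olivocochlear (LOC) neurons of the lateral superior olive and 13 medial olivocochlear (MOC) neurons, recorded in the ventral nucleus of the trapezoid body, 1 neuron per library. Both groups came from acute brainstem slices of mice carrying ChAT-IRES-Cre and a tdTomato reporter, in which Cre made from the choline acetyltransferase gene turns on a red protein, and the labels give the genotype of every cell as wild-type. No treatment other than the recording is named, and the sources used here give no age, sex or animal for any cell. Each red cell was patch clamped, its cytoplasm was aspirated, and its polyadenylated RNA was read as full-length Smart-seq2 cDNA.

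Granins are acidic secretory proteins that aggregate in the trans-Golgi network and take part in the formation of dense-core vesicles, the organelles that store neuropeptides. Several granins are themselves cut into peptides, as VGF and secretogranin II are. Release of these vesicles needs priming factors, among them the CAPS proteins encoded by Cadps and Cadps2, whereas BAIAP3 acts in the recycling of dense-core vesicle proteins through endosomes. Olivocochlear neurons send cholinergic axons to the cochlea, and those of LOC neurons also carry peptides. The comparison asks whether the machinery of peptide storage and release differs between the cell bodies of the 2 groups.

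The LOC libraries held 356412 to 1404896 counts and the MOC libraries 598028 to 2627174. Levels are given as CPM (counts scaled to a library total of 1e6), either per cell or for the summed counts of a group, and differences are LOC minus MOC of the mean log2(CPM + 1). Since the labels tie no cell to an animal, a group is 1 sample without replicates and nothing was tested. SDs are spreads between cells. The 95% intervals of summed counts cover counting error only. Those of shares of cells take the cells as independent draws, and neither kind covers differences between animals. The size rule calls a gene higher in LOC or in MOC under 3 conditions: a summed CPM 2 or more times that of the opposite cells, a mean log2(CPM + 1) higher by 1 or more, and reads in 25% or more of the cells on the higher side.

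Markers did not bear out the label equally in every library. Reads of the 3 defining cholinergic genes Chat, Slc18a3 and Slc5a7 together ran from 0 to 1613 per LOC cell (median 305.5) and from 0 to 997 per MOC cell (median 28). They were absent from LOC cells 14 and 16 and from MOC cell 8. The vesicular glutamate transporters Slc17a6 and Slc17a7, which mark glutamatergic neurons, were highest in LOC cell 14 (710 CPM) and in MOC cells 2 (732 CPM) and 13 (413 CPM), of which the MOC pair held 45 and 1 cholinergic reads. Gad1, an enzyme of GABA synthesis, reached at most 286 CPM in LOC cells (median 36.6), whereas MOC cells 8 and 9 stood at 1690 and 568 CPM above a MOC median of 129 CPM. Gad2, another such enzyme, lacked this contrast, with up to 867 CPM in LOC (cell 13) and 617 CPM in MOC (cell 4). With Slc6a5 and Slc32a1 added, these inhibitory markers summed to at most 949 CPM in LOC (cell 13) and 2990 CPM in MOC (cell 8). Markers of glia were present in both groups, and 5 of 10 microglial genes were higher in MOC, with summed levels of 31.1 to 2031 CPM in LOC cells and 40.7 to 9480 CPM in MOC cells. The 8 oligodendrocyte genes, none of which met the rule, ran from 22.7 to 238146 CPM in LOC cells and from 358 to 123000 CPM in MOC cells.

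The stretches just before the RefSeq transcription start of 6 of the genes are printed here. Several granin genes are known targets of cAMP signalling, and Baiap3 and Resp18 are the members that met the size rule. Each line gives the 150 bases before the RefSeq start, 5′ to 3′ on the strand of the gene (build GRCm38.p6). The gene spans given below come from the GENCODE annotation, whose starts can differ from those of RefSeq. By those spans the whole Chgb stretch lies inside the gene. The same holds for part of the Scg2 stretch, with its marked element. Capitals mark the cAMP response element TGACGTCA or, where that is missing, its core TGACG, which overlaps the full element.
Scg2, chr1:79440027-79440176, minus strand: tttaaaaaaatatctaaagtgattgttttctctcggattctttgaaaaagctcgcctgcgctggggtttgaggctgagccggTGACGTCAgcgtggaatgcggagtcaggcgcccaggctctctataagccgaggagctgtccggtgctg
Chgb, chr2:132781492-132781641, plus strand: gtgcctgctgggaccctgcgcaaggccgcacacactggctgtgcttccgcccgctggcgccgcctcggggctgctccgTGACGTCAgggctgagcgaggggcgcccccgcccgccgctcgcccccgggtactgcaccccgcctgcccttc
Chga, chr12:102554791-102554940, plus strand: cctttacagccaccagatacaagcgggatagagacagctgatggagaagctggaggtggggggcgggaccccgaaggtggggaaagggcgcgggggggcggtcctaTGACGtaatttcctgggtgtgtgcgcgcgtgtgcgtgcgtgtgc
Scg3, chr9:75684057-75684206, minus strand: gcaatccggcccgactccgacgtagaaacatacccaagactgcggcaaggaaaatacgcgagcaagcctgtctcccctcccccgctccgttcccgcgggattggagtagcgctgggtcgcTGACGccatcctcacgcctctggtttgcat
Resp18, chr1:75278416-75278565, minus strand: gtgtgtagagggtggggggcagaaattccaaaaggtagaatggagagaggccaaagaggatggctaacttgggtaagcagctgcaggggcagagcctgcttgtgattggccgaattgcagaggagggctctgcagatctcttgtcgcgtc
Baiap3, chr17:25256365-25256514, minus strand: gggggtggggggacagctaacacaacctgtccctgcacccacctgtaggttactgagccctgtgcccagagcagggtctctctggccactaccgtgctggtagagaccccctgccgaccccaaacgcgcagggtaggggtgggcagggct

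RefSeq promoter windows, which run 250 bases before to 50 bases after the RefSeq start, were at hand for 9 of the 10 genes. Vgf had no window and was not searched. The full element lay in 2 of the 9 windows, starting 68 bases before the start of Scg2 and 72 bases before that of Chgb, and in 1.79% of all 32851 promoter windows. The core TGACG, searched on both strands, lay in 4 of the 9, adding Chga at 44 bases and Scg3 at 30 bases before the start, and in 20.8% of all windows. Neither sequence occurred in the windows of Resp18, Baiap3, Cadps, Cadps2 and Nucb2.

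Of the 10 genes, Baiap3 and Resp18 were higher in LOC cells and 0 were higher in MOC cells. Over all 17754 measured genes the rule was met by 6.07% in LOC and 5.67% in MOC, that is by 1078 and 1007 genes (836 and 1316 with DESeq2 size factors). With the ratio of summed counts alone as the rule, Baiap3, Resp18 and Vgf were higher in LOC and Scg2 in MOC, and 20.5% of all measured genes passed in each direction. The median difference of the 10 genes was 0.54 against -0.07 for all measured genes, and 9 of 10 lay above 0 against 45.7% of all. For most members this difference was small beside the spread between cells, whose SD on the log2 scale ran from 1.21 (Chga) to 3.03 (Baiap3) in LOC and from 0.99 (Baiap3) to 3.19 (Scg2) in MOC.

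**Figure D1:**
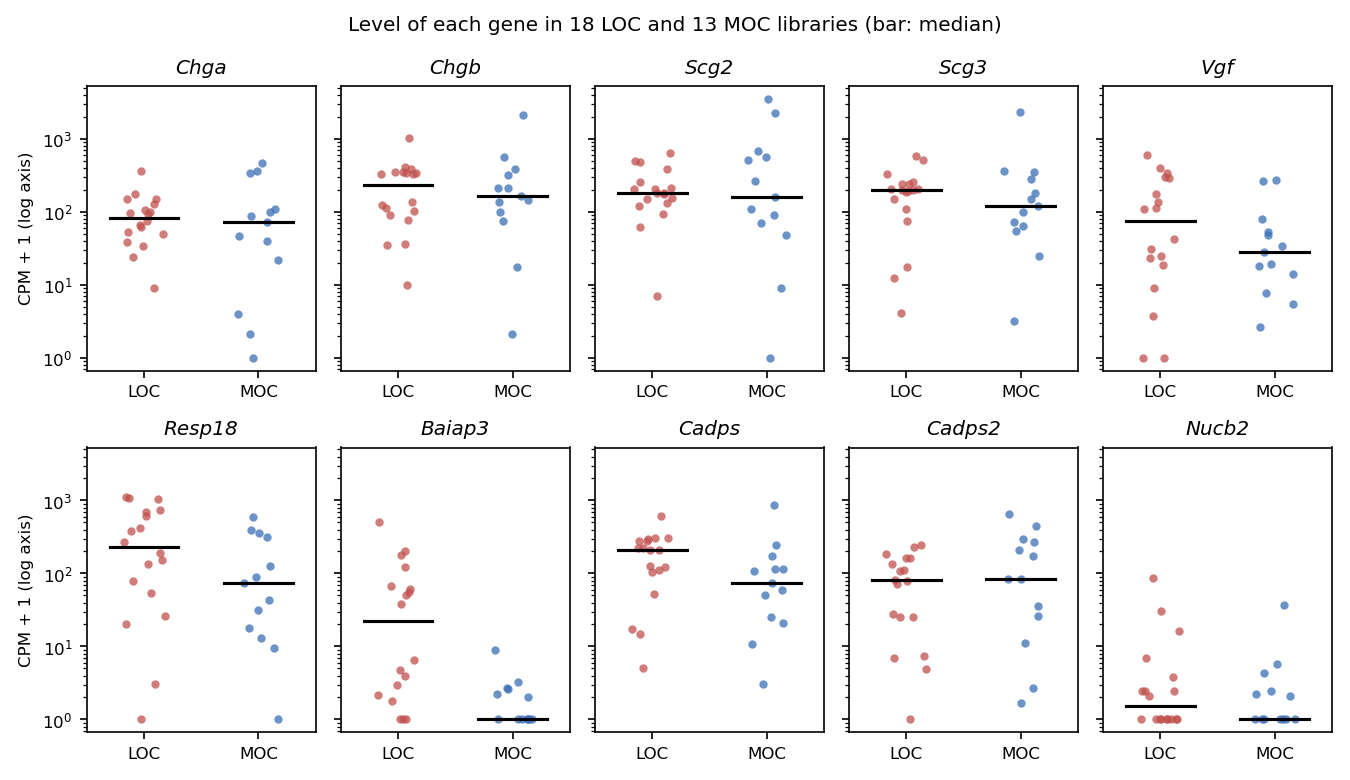
CPM + 1 on a log axis for each of the 10 genes, with 1 point per cell (18 LOC cells on the left of each panel, 13 MOC cells on the right) and a bar at the median. Baiap3 lay above the highest MOC cell in 9 LOC cells, and single MOC cells stood far above the rest in Scg2, Scg3, Chgb and Cadps.

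Baiap3 showed the widest difference of the 10. The gene lies on chromosome 17 at 25242659 to 25256364 (GRCm38, minus strand, ENSMUSG00000047507) and encodes a Munc13-related C2-domain protein. Per cell it ranged from 0 to 507 CPM in LOC (median 21.6) and from 0 to 7.99 CPM in MOC (median 0). The groups overlapped only at the low end, since 9 LOC cells lay above every MOC cell and these 9 held at least 5 counts, as did 1 MOC cell. Reads were found in 15 of 18 LOC cells (83.3%, with an exact 95% interval of 58.6 to 96.4) against 6 of 13 MOC cells (46.2%, 19.2 to 74.9). The mean difference was 3.15 (3.91 ± 3.03 in LOC, 0.76 ± 0.99 in MOC). Within LOC the gene was split: 9 cells had between 37.7 and 507 CPM, and the other 9 had 5.61 CPM or less. LOC cell 17, which had the most oligodendrocyte reads of all libraries and 11 cholinergic reads, gave 39.8% of the LOC counts, and without it the difference was 2.85. MOC cell 7, the deepest library, gave 77.8% of the 27 MOC counts. Without the 3 libraries highest in oligodendrocyte markers the difference was 2.96 and without the 3 highest in microglial markers 3.35. Exons of Tsr3, a gene of ribosome maturation, overlap Baiap3 on the other strand. Tsr3 had 38.3 CPM in LOC against 30.7 CPM in MOC, and it did not meet the rule.

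Resp18, a peptide hormone-regulated protein of the endocrine secretory pathway related to the granule protein encoded by Ptprn, was the other member that met the rule. It lies on chromosome 1 at 75272199 to 75278415 (minus strand, ENSMUSG00000033061). Its level ranged from 0 to 1100 CPM in LOC cells (median 232) and from 0 to 599 CPM in MOC cells (median 73.6). The groups overlapped widely, with 6 LOC cells above the highest MOC cell and 13 LOC cells above the MOC median. The mean log2 level was 7.13 ± 2.92 in LOC and 5.83 ± 2.63 in MOC. Over 100 CPM were present in 12 of 18 LOC cells and 5 of 13 MOC cells. LOC cells 14 and 9, with 0 and 2.03 CPM, and MOC cell 13, with 0 CPM, were the lowest, and all 3 held fewer than 10 cholinergic reads. Leaving out MOC cell 13 brought the difference to 0.82, below the rule, and leaving out LOC cell 14 brought it to 1.72.

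Vgf, the gene of a granin cut into several bioactive peptides, was higher in the summed counts of LOC, at 156 CPM (95% Poisson interval 150 to 163) against 72.5 CPM in MOC (68.1 to 77.2), but its mean difference of 0.71 was below the rule. It lies on chromosome 5 at 137026392 to 137033351 (plus strand). LOC cells ranged from 0 to 607 CPM with a median of 75.0, and MOC cells from 1.67 to 270 CPM with a median of 27.3. LOC cells 3, 8, 13, 15 and 18 exceeded every MOC cell, whereas LOC cells 9 and 14 had no read. In MOC, cells 8 and 9 were the highest, at 261 and 270 CPM, and the other 11 lay between 1.67 and 79.2 CPM. Without LOC cell 9 or without LOC cell 14 the difference was 1.04 and the rule was met. Without MOC cells 8 and 9, the libraries with the most Gad1, the difference was 1.30.

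Scg2, the gene of secretogranin II, the precursor of secretoneurin, lies on chromosome 1 at 79434669 to 79440120 (minus strand, promoter above). Its summed level was 258 CPM in LOC (249 to 266) against 756 CPM in MOC (742 to 771), although the mean difference was 0.16 in the other direction. Per cell it ranged from 6.10 to 651 CPM in LOC (median 182) and from 0 to 3533 CPM in MOC (median 158). The medians were thus close, and the MOC sum rested on 2 cells. MOC cell 8 had 3533 CPM and MOC cell 9 had 2286 CPM, and together with MOC cell 3 (566 CPM) they held 78.9% of the MOC counts. MOC cell 2, at 676 CPM, was the third by level. MOC cells 8 and 9 had 0 and 6 cholinergic reads, and their inhibitory markers (Gad1, Gad2, Slc6a5 and Slc32a1) summed to 2990 and 1342 CPM, the highest levels of the 31 libraries. Without both, the summed LOC level was 0.99 times that of MOC, in place of 0.34 times with all cells. The part of inhibitory cells in the Scg2 level was not tested.

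Chga, the gene of chromogranin A (chromosome 12, 102554969 to 102565028, plus strand), was read in every LOC cell. Its level ranged from 8.13 to 368 CPM in LOC (median 82.7) and from 0 to 471 CPM in MOC (median 72.9). The LOC cells were the more uniform, with 6.21 ± 1.21 against 5.41 ± 2.84 in MOC on the log2 scale. MOC cells 13, 2 and 3 had 0, 1.12 and 3.02 CPM, below all LOC cells, while MOC cells 5, 8 and 9 had 346 to 471 CPM. The difference of 0.79 was 0.34 without MOC cell 13 and 1.08 without MOC cell 8, where the summed LOC level was 1.08 times that of MOC.

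Chgb, the gene of chromogranin B (chromosome 2, 132781278 to 132795079, plus strand), had nearly equal summed levels, 274 CPM in LOC (265 to 282) against 280 CPM in MOC (271 to 289). It was read in all 31 cells, from 8.96 to 1019 CPM in LOC (median 231) and from 1.12 to 2140 CPM in MOC (median 164). LOC cell 15 supplied 24.2% of the LOC total, and MOC cell 13 alone supplied 38.9% of the MOC total. The difference of 0.22 was -0.28 without MOC cell 2, which had the single lowest level.

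Scg3, the gene of secretogranin III, which holds granin aggregates at the cholesterol-rich membrane of the vesicle, lies on chromosome 9 at 75643189 to 75684056 (minus strand). Its summed level was 208 CPM in LOC (201 to 216) against 229 CPM in MOC (221 to 237). LOC cells ranged from 3.16 to 592 CPM (median 200) and MOC cells from 2.23 to 2308 CPM (median 120). In LOC 13 cells lay above the MOC median, and LOC cells 17, 14 and 13 stood low at 3.16, 11.4 and 16.8 CPM. The largest MOC share, 46.1%, lay in cell 4, and without that cell the summed MOC level was 129 CPM. This cell held only 3 reads of Chat, Slc18a3 and Slc5a7. With Ache, Isl1 and Gata3 added, its cholinergic level was 2380 CPM, and its inhibitory markers summed to 884 CPM, of which Gad2 gave 617 CPM. The identity of this cell was not tested.

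The mix of granins varied widely between the cells of each group. The share of Chgb in the summed level of Chga, Chgb, Scg2, Scg3 and Vgf ran from 1.16% (cell 8) to 58.3% (cell 14) in LOC, with a median of 21.9%. In MOC it ran from 0.147% (cell 2) to 84.9% (cell 13), with a median of 22.7%. The sum of all 10 genes ran from 289 CPM (LOC cell 9) to 4327 CPM (LOC cell 15), with a median of 1756 CPM, and from 572 CPM (MOC cell 11) to 5077 CPM (MOC cell 8), with a median of 1542 CPM.

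The CAPS genes leaned in opposite directions without meeting the rule. Cadps, on chromosome 14 at 12372563 to 12823079 (minus strand), encodes CAPS1, the main priming factor of neuronal dense-core vesicles. It ranged from 3.99 to 614 CPM in LOC cells (median 207) and from 2.07 to 856 CPM in MOC cells (median 73.2). The MOC maximum was cell 13, and without that cell the difference of 0.97 was 1.29 and met the rule. Over 100 CPM were present in 14 of 18 LOC cells and in 6 of 13 MOC cells. Reads of genes inside the introns of Cadps did not exceed 5.33 CPM.

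Cadps2, on chromosome 6 at 23262773 to 23839421 (minus strand), encodes CAPS2, known for its part in the release of neurotrophins in the cerebellum. It had 89.1 CPM in LOC (84.3 to 94.2) against 163 CPM in MOC (157 to 170), and the means differed by -0.46. LOC cells ranged from 0 to 247 CPM (median 80.0) and MOC cells from 0.69 to 657 CPM (median 84.1). MOC cells 1, 2, 3 and 10 exceeded every LOC cell, and at the other end MOC cells 8 and 5 had 0.69 and 1.67 CPM. Without the 2 libraries with the most Gad1 the difference was -1.16 and the rule was met in MOC, whereas without the 3 highest in oligodendrocyte markers it was 0.06. Per kilobase of exon, summed Cadps was 1.43 times Cadps2 in LOC and 0.47 times in MOC. Within cells the order was mixed, with Cadps above Cadps2 per length in 10 of 18 LOC and 5 of 13 MOC cells. The mean log2 difference of Cadps minus Cadps2 per length was 0.53 ± 1.77 in LOC and -0.69 ± 2.73 in MOC.

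Nucb2, the gene of nucleobindin 2, from which nesfatin-1 is cut, was scarce in both groups. It had 7.57 CPM in LOC (6.21 to 9.15) against 4.11 CPM in MOC (3.10 to 5.33), with reads in 9 of 18 LOC cells and 6 of 13 MOC cells. LOC cell 4 held 58.3% of the LOC counts and MOC cell 3 held 85.7% of the MOC counts. At least 5 counts were present in 3 LOC cells and 1 MOC cell. The mean difference of 0.36 was 0.07 without LOC cell 4 and 0.71 without MOC cell 3.

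When the comparison was kept to the 14 LOC and 8 MOC libraries in which Chat, Slc18a3 and Slc5a7 together had 10 or more reads, the rule was met by 6 of the 10 genes in LOC and by 1 in MOC, against 8.47% and 6.9% of the genes measured in those libraries. The LOC genes were Baiap3 (difference 3.93), Vgf (2.60), Resp18 (2.08), Chgb (1.29), Scg3 (1.13) and Cadps (1.09). Vgf had 182 CPM in the summed LOC counts and 31.7 CPM in MOC, and its 8 MOC cells ranged from 1.67 to 79.2 CPM against 8.13 to 607 CPM in the 14 LOC cells. Cadps2 was the gene higher in MOC, at 94.9 CPM in LOC against 220 CPM in MOC. Scg2 differed by 0.09 in these libraries, with 284 CPM in LOC against 316 CPM in MOC. The median difference of the 10 genes was 1.13. The cut on reads was not scaled to library depth. It kept LOC cell 17 (11 reads) and MOC cell 7 (28 reads in 2627174 counts), and left out LOC cell 7 (5 reads in 356412 counts). It also left out MOC cell 4, which had 3 such reads but 2380 CPM of the 6 cholinergic genes used below for correlations. Of the counts of all 13 MOC cells, that cell held 46.1% for Scg3. MOC cell 13, also left out, held 38.9% for Chgb and 36.4% for Cadps. In the libraries kept, the summed LOC level was 2.09 times that of MOC for Scg3 and 2.13 times for Chgb, near the limit of 2. How far the calls of these 3 genes rest on the absence of these cells was not tested. Libraries with fewer such reads were 4 of 18 in LOC and 5 of 13 in MOC, and whether they are other cells or poor samples of the same cells cannot be told apart.

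**Figure D2:**
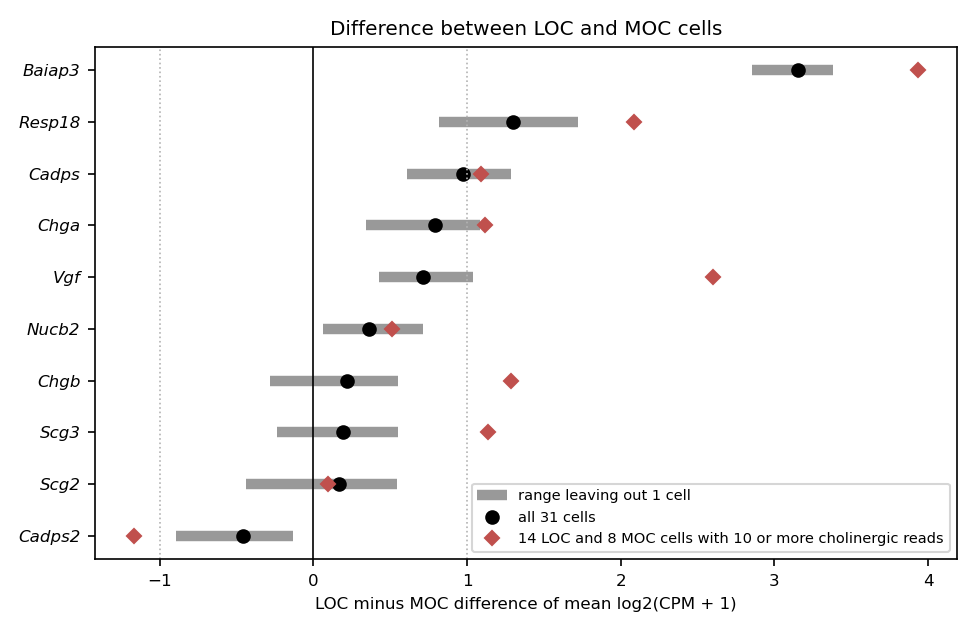
LOC minus MOC difference of mean log2(CPM + 1) per gene over all 31 cells (black points), its range when each cell is left out in turn (grey bars) and its value in the 14 LOC and 8 MOC cells with at least 10 cholinergic reads (red diamonds), with dotted lines at a difference of 1 in either direction. The grey bar of Baiap3 ran from 2.85 to 3.38, and those of Chgb, Scg2 and Scg3 crossed 0.

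For a comparison between genes, levels were divided by the joint length of all annotated exons of each gene. That length need not be the length of the transcripts present, so the order is approximate. In LOC, summed Resp18 stood first with 396 CPM per kilobase, before Scg2 (102), Chgb (99.9), Scg3 (76.0), Vgf (52.5), Chga (37.9), Baiap3 (16.6), Cadps (13.3), Cadps2 (9.32) and Nucb2 (3.25). In MOC, Scg2 led with 301 CPM per kilobase, before Resp18 (160), Chgb (102), Scg3 (83.5), Chga (49.7), Vgf (24.4), Cadps2 (17.1), Cadps (7.95), Nucb2 (1.76) and Baiap3 (0.387). By these sums Baiap3 was seventh in LOC, where cell 17 gave 39.8% of its counts, and last in MOC. By the mean over LOC cells of log2(CPM per kilobase + 1) it stood lower, at 2.38 against 3.32 for Cadps and 2.79 for Cadps2, and it exceeded Cadps in 4 of 18 LOC cells. Most neighbours in either order were not apart beyond their spread: the mean within-cell log2 difference exceeded its SD only for Chga above Baiap3 (2.41 ± 1.67) and Cadps2 above Nucb2 (1.82 ± 1.75), both in LOC. The lead of Scg2 over Resp18 in MOC held in 7 of 13 cells, and that of Resp18 over Scg2 in LOC in 13 of 18.

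Across LOC cells most pairs of the genes had a positive correlation, usually a weak one. Of the 45 pairs of genes, 36 had a Spearman correlation above 0 over the 18 LOC cells, 11 exceeded 0.5, and the median was 0.23. Vgf and Resp18 had the highest (Spearman 0.72, Pearson 0.78, and 0.51 without the 2 cells farthest from the median), next to Resp18 with Cadps (0.72, 0.53 and 0.74) and Chga with Baiap3 (0.70, 0.66 and 0.57). Over the 13 MOC cells 24 of the 45 pairs lay above 0, the median was 0.03, and only Chgb with Scg3 exceeded 0.5 (0.51, 0.73 and 0.39). Scg2 and Scg3 ran opposite to each other in MOC (-0.66, -0.55 and -0.61), and MOC cells 4, 5 and 13 were high in Scg3 and low in Scg2. The cells of a pair share their library, its depth and the total it is scaled to, so these values are descriptions. The 4 granin genes with the core TGACG in their promoters did not all run together (Vgf, the other granin gene, was not searched). Whether the element is in use in these cells was not tested. In LOC the Spearman correlation was 0.61 for Chga with Chgb, 0.58 for Chga with Scg2, 0.32 for Chgb with Scg2, -0.07 for Chgb with Scg3, -0.10 for Scg2 with Scg3 and -0.34 for Chga with Scg3, the lowest of the 45 LOC pairs. In MOC the 6 pairs ran from -0.66 (Scg2 with Scg3) to 0.51 (Chgb with Scg3), and Chgb with Scg2, which hold the full element, had -0.21.

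**Figure D3:**
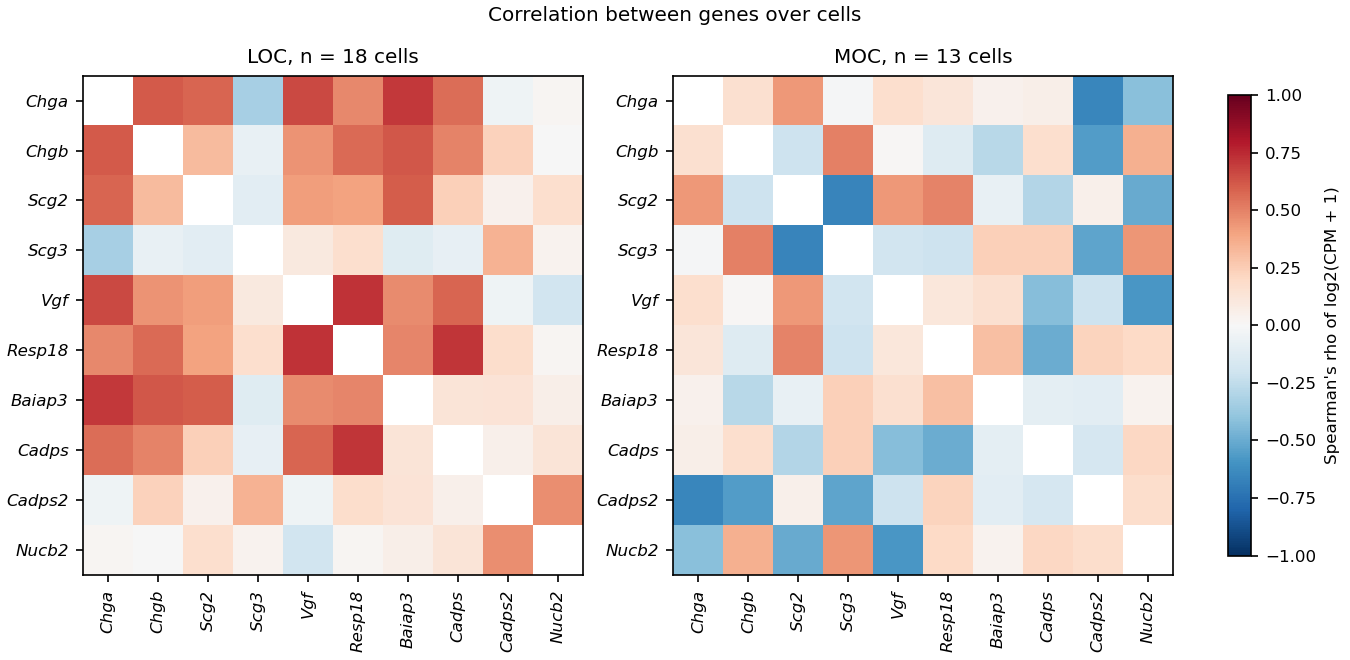
Spearman correlation of log2(CPM + 1) for each pair of the 10 genes over 18 LOC cells (left) and 13 MOC cells (right), from blue at -1 to red at 1. Red squares were the more frequent in LOC, where 36 of 45 pairs lay above 0 against 24 of 45 in MOC.

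The level of several members followed the cholinergic markers in LOC cells. Against the summed CPM of 6 cholinergic genes (Chat, Slc18a3, Slc5a7, Ache, Isl1 and Gata3), Resp18 had a Spearman correlation of 0.88 in LOC (Pearson 0.88, and 0.76 without the 2 cells farthest from the median) and 0.45 in MOC (0.48 and 0.60). Vgf had 0.76 in LOC (0.77 and 0.58) and -0.55 in MOC (-0.49 and -0.35). Cadps had 0.68 in LOC (0.53 and 0.65) and 0.07 in MOC (0.03 and 0.001). The mean of the 10 standardised genes had 0.84 in LOC (0.84 and 0.78) and 0.37 in MOC (0.32 and 0.27). Baiap3 was looser, at 0.52 in LOC (0.49 and 0.27). LOC cell 17 combined the highest Baiap3 level with few cholinergic reads, and LOC cells 1, 8 and 18, rich in cholinergic reads, held 0 to 3.79 CPM of it. Glial markers ran the other way in LOC by rank for the mean of the 10 genes, but not for every member. That mean had Spearman correlations of -0.51, -0.62 and -0.47 with the oligodendrocyte, microglial and astrocyte lists in LOC. In MOC these were 0.16, -0.07 and 0.08. Scg3 had -0.07, 0.09 and 0.17 with the same lists in LOC. Resp18 had a Spearman correlation of -0.58 with the oligodendrocyte list (Pearson 0.27, and -0.82 without the 2 cells farthest from the median), -0.72 with the microglial list (-0.68 and -0.62) and -0.50 with the astrocyte list (-0.21 and -0.73). Cadps had -0.66 with the oligodendrocyte list (-0.39 and -0.64), -0.57 with the microglial list (-0.64 and -0.45) and -0.83 with the astrocyte list (-0.71 and -0.77). Total counts per cell were related to Scg2 in both groups (Spearman 0.59 in LOC and 0.70 in MOC).

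**Figure D4:**
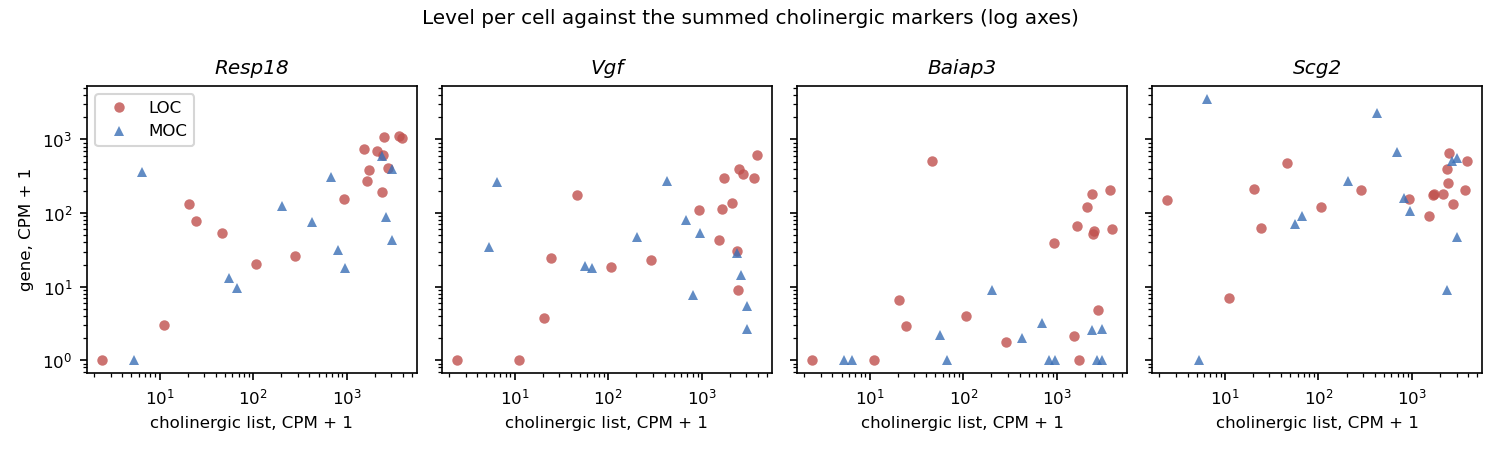
CPM + 1 of Resp18, Vgf, Baiap3 and Scg2 in each cell against the summed CPM + 1 of the 6 cholinergic genes, both on log axes, with LOC cells as red circles and MOC cells as blue triangles. The LOC cells with 938 CPM or more of these markers had 152 CPM of Resp18 or more, and the highest Scg2 level was in a MOC cell with 5.52 CPM of these markers.

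Among 60 other genes of the dense-core vesicle pathway, 59 were measured, 6 were higher in LOC, 1 was higher in MOC and 52 met the rule in neither direction, with a median difference of 0.17. These counts and those of the lists below are to be set beside the 6.07% of all measured genes that met the rule in LOC and the 5.67% that met it in MOC. Of the 7 genes of vesicle membrane and peptide processing, 3 were higher in LOC. Ptprn, a transmembrane protein of dense-core granules, had 333 CPM in LOC against 126 CPM in MOC (difference 1.09), and was read in all 31 cells. Pam, which amidates the ends of peptides, differed by 1.68, and Pcsk1, a convertase that cuts their precursors, by 3.10, being read in 12 of 18 LOC cells and 7 of 13 MOC cells. The other 4 did not meet the rule. Pcsk2, the second convertase, had 54.5 CPM in LOC against 22.4 CPM in MOC (0.82), and Cpe, the carboxypeptidase that trims the cut ends, had 878 CPM in LOC against 901 CPM in MOC (0.63).

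Of the 15 genes of vesicle formation, Vamp4, a fusion protein found on immature granules, was higher in LOC (81.1 CPM against 33.6 CPM in MOC, difference 1.31), and 14 genes met the rule in neither direction. Of the 29 measured genes of priming and fusion, 2 were higher in LOC, which is near the share of all genes, and 1 in MOC. Syt4, a synaptotagmin of dense-core vesicles, had 260 CPM in LOC against 107 CPM in MOC, with means of 7.04 and 5.55 on the log2 scale. Stx1a, a plasma membrane fusion protein, had 122 CPM in LOC against 52.7 CPM in MOC (1.27), but 69.6% of the LOC counts came from LOC cell 14 and 86.9% of the MOC counts from MOC cell 13, both with glutamatergic markers. Cplx1, a complexin that binds the assembled fusion complex, had 273 CPM in LOC against 929 CPM in MOC (-1.69) and was read in all 31 cells. The 4 Munc13 genes related to Baiap3 did not meet the rule: Unc13a had 104 CPM in LOC against 59.3 CPM in MOC, Unc13b 18.7 and 7.63 CPM, Unc13c 80.1 and 56.1 CPM, and Unc13d 1.89 and 5.65 CPM. The 3 granin relatives and 5 transport genes held 0 genes in either direction. Among the granin relatives, Scg5, the chaperone of PC2, had 207 CPM in LOC against 192 CPM in MOC, and Pcsk1n, the inhibitor of PC1, reached 459 CPM in LOC against 493 CPM in MOC.

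Of 17 measured peptide precursors that such vesicles could carry, 5 were higher in LOC (Calca, Calcb, Ucn, Npy and Pdyn) and 1 in MOC (Pnoc), with a median difference of 0.12 and beside 6.07% and 5.67% of all measured genes. Single cells weighed heavily in these 6 genes. For Pnoc, 86.2% of the MOC reads lay in cell 8, which had 0 cholinergic reads and the most Gad1. Among LOC cells, cell 15 held the largest part of Pdyn (63.4%), Ucn (42.3%), Calca (41.0%) and Npy (32.8%). Cell 8 did so for Calcb (51.6%). Per LOC cell the summed precursors ran from 110 to 42568 CPM (median 1624). Per MOC cell they ran from 16.7 to 1464 CPM (median 289). LOC cell 15, which had the highest cargo level, also had the highest Chgb, Scg3 and Vgf of the LOC cells, and LOC cell 9, with the lowest cargo level, had the lowest sum of the 10 genes. Over the 18 LOC cells the summed precursors had a Spearman correlation of 0.73 with Cadps (Pearson 0.63, and 0.64 without the 2 cells farthest from the median), 0.67 with Vgf (0.65 and 0.55), 0.64 with Resp18 (0.53 and 0.49) and 0.14 with Baiap3 (0.09 and 0.09). In MOC cells the values were 0.58 for Resp18 (0.45 and 0.56), 0.28 for Vgf (0.40 and -0.07), -0.23 for Baiap3 (-0.30 and -0.46) and -0.53 for Cadps (-0.45 and -0.39). The cholinergic markers moved with the same members in LOC, and their part in these correlations was not tested.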

How the data were processed

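The authors deposited a table of raw counts with 1 column for each cell (55440 rows, of which 19 are added sequences, left out here, holding 0.00454 to 0.0522% of the counts). They also deposited a normalized signal table of 20784 genes, in which every value is the raw count times 1 constant per column and columns sum to 721736 to 1737008. It was used as an alternative only. The submitters' processing notes list the builds GRCm38 and mm10 and the tools STAR 2.5.2, bcl2fastq, limma, edgeR and DESeq2, without roles. The counting tool and annotation, not given in the sources used here, may have split or dropped reads of near-identical genes. Per the labels, libraries were Nextera, which keeps no strand, so where genes overlap on opposite strands their reads cannot be told apart, and Smart-seq2 reads carry no molecular identifiers.

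CPM used the total over mouse genes as library size. In 1 cell, 3 counts came to 1.14 to 8.42 CPM, and the rule took 3 counts per group as the lowest sum. Symbols came from the normalized table, otherwise from GENCODE M21 (GRCm38), which matched 55154 identifiers and gave coordinates (from 1) and exon lengths. Promoters came from RefSeq. Intervals are exact Poisson for summed counts and exact Clopper-Pearson for shares of cells. The members and lists were chosen with earlier results of these data known. Named were all members, up to 4 rule-meeting genes of each list, the genes most like the members, and marker genes. Other genes named were picked for their role after their values were seen. Alternatives were summed counts, a pseudocount of 10, TMM sizes (edgeR 4.0.16), DESeq2 1.42.0 size factors, the authors' table, filters, thinning to 350000 counts, and sets of libraries.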

Additional observations from a re-analysis of the deposited data

How the results depend on the processing

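Baiap3 met the rule in LOC in all 31 fits that left out 1 cell and in 13 other settings (1.71 with a pseudocount of 10, 4.85 with summed counts), and Resp18 in all of these but 1. Among the other settings, the lack of a filter on low counts and the filter of mean 10 CPM alter only which genes are counted as measured. The call of a gene could not change there. The number of members higher in LOC was 2 to 3 with 1 cell left out, 6 in libraries with at least 10 cholinergic reads and 4 without the 3 libraries highest in glutamatergic markers. The number higher in MOC was 0 with any 1 cell left out and 1 with summed counts (Scg2, where 20.5% of all genes met the rule in MOC), with the cholinergic libraries and without the 2 libraries with the most Gad1. The last restriction and the glutamatergic one were chosen after seeing the data. The median of the members stayed between 0.39 and 0.74 with 1 cell left out and between 0.18 and 1.13 otherwise. Of 59 measured pathway genes, those higher in LOC numbered 5 to 9 with 1 cell left out, 4 with a pseudocount of 10, 14 with summed counts (20.5% of all genes), 10 in the cholinergic libraries (8.47% of all genes) and 11 without the 3 libraries highest in oligodendrocyte markers (1554 of 19976 genes). Those higher in MOC numbered 1 to 3 with 1 cell left out, 4 with summed counts, 3 in the cholinergic libraries and without the 2 libraries with the most Gad1, and 2 with TMM sizes, DESeq2 size factors, the authors' table, thinned counts and the removal of the 3 libraries richest in microglial or in oligodendrocyte markers. The cause of these shifts was not tested. Summed counts turned the direction of Chga (-0.38), Chgb (-0.03), Scg2 (-1.55) and Scg3 (-0.14), none of which met the rule on cell means with all cells. Scg2 also turned with a pseudocount of 10 (-0.10) and without MOC cell 4 or 13, Chgb without MOC cell 2 or 10 and Scg3 without MOC cell 2 (-0.24). Without the 3 glutamatergic libraries Chga (-0.11), Chgb (-0.03) and Scg2 (-0.29) turned, and without the 3 oligodendrocyte-rich ones Cadps2 did (0.06). No paired analysis was possible because cell numbers only name cells within a group and no test was run. In 1 cell, 3 counts were worth up to 8.42 CPM, which limits the values of scarce genes such as Nucb2.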

Other observations

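Genes other than the 10 members were ranked by how closely their level followed the members over the 31 cells. Among 10098 genes, the mean of the 10 standardised members was followed most closely by Bex2, with a Spearman correlation of 0.75 (0.80 in LOC, 0.70 in MOC), then Grina (0.73), Dnm3 (0.73), Tox2 (0.72) and Fndc3a (0.72). Bex2 had 379 CPM in LOC against 309 CPM in MOC. Among 17754 genes, Resp18 was followed by Itm2b (0.80), Nap1l5 (0.76) and Ecel1 (0.75), an endopeptidase-like protein of neurons whose value was 0.90 within LOC and 0.52 within MOC, at 511 CPM in LOC against 96.5 CPM in MOC. Baiap3 was followed by Chst8 (0.69), a sulfotransferase that acts on the sugars of glycoprotein hormones, with 0.87 within LOC and 0.27 within MOC, at 69.5 CPM in LOC against 20.5 CPM in MOC. Ppp2r5c (0.68) and Ubr1 (0.66) came next, and the value of Ubr1 was 0.86 within LOC and -0.05 within MOC. These are the highest of many values over cells that share library depth, and they are given as descriptions.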
